A study of Mus musculus with 12 samples.

Results

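Cells of mouse embryos that carry the receptor Flk1 were compared by whether they also carry Endoglin: 3 arrays of Eng+Flk1+ cells against 3 arrays of Eng-Flk1+ cells, chosen by their titles, of 12 arrays in all. The embryos were of strain CD-1, at embryonic day 7.5, with no allele or treatment named, and about 300 embryos of 25 litters were pooled before sorting. Whole embryos were dissected and stained for both surface proteins, and 3000 cells were sorted for each array. The remaining 6 arrays, 3 of Eng-Flk1- and 3 of Eng+Flk1- cells of the same pool, serve for the difference that Endoglin makes without Flk1. Because every array came from 1 pool, the p-values measure only how sorted samples of that pool spread, part of which may be technical; embryos were not compared.

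Flk1, encoded by Kdr, binds the growth factor VEGF and is found on the mesoderm cells that give rise to blood, vessel and heart. Endoglin, encoded by Eng, helps the receptors of TGF-beta and BMP to bind their ligands, on endothelial cells and on early blood precursors. In the textbook order, nascent mesoderm leaves the primitive streak, Flk1 positive cells switch on the factor Etv2 and become angioblasts, and the maturing vessel lining then carries junction proteins, Tie receptors and the ETS factors Erg and Fli1. Levels below are log2 signals of a probe relative to the 75th percentile of its array, so a level of 0 is the signal of that percentile. Folds are log2 differences, Eng+Flk1+ minus Eng-Flk1+, with their SE from limma. Errors of levels are SD (n = 3). Levels are compared between arrays for 1 gene at a time and not between genes.

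Of 22720 genes tested, limma called 6 at an adjusted p under 0.05, 2 higher (0.0088% of genes) and 4 lower (0.0176%) in Eng+Flk1+. At an unadjusted p under 0.05 it passed 1086 genes, 2.39% higher and 2.39% lower. No gene of the endothelial, angioblast, mesoderm or blood lists passed the adjusted threshold, so each list is described by its counts and its median beside the same counts over all genes. The median fold of all genes was 0.10, and 55.6% of genes had a positive fold. On all 6 arrays between 80.3% and 83.3% of spots were well above background. Across genes, the arrays correlated at 0.813 to 0.911 within the 2 fractions and at 0.803 to 0.863 between them (genes are not independent replicates). Both fractions share only slide 2, which holds 2 arrays of each.

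The transcripts of the sorting markers were read first. Eng was at 0.20, -0.36 and 1.62 on the Eng-Flk1+ arrays and at 2.76, 1.04 and 2.49 on the Eng+Flk1+ arrays. The Eng+Flk1+ arrays were the higher ones except that Eng+Flk1+ replicate 2 lay below Eng-Flk1+ replicate 3, and the fold was 1.61 ± 0.69 (limma adjusted p = 0.999). Kdr was at 0.90, 0.47 and 1.96 in Eng-Flk1+ and at 1.53, 1.85 and 1.53 in Eng+Flk1+, so that the groups overlapped (0.53 ± 0.96, limma adjusted p = 0.999). Both fractions thus carried Kdr transcript, against mean levels of -6.20 and -5.38 in the fractions without Flk1.

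Genes of the maturing vessel lining were higher in Eng+Flk1+ as a list. Of 47 such genes 46 could be tested, 43 of them well above background on all 6 arrays. Adgrl4 was not tested, because no group had it well above background on 3 of 3 arrays. The median fold was 1.25, against 0.10 over all genes. Positive folds were seen for 42 of the 46, and 17 were higher and 0 lower at an unadjusted p under 0.05, where 2.39% of all genes passed in each direction. The arrays of Eng+Flk1+ lay wholly above those of Eng-Flk1+ for 25 of the 46 genes and wholly below for 0, where 7.45% of all genes lay wholly above and 6.37% wholly below. Fli1 is among the 25 without a value on Eng+Flk1+ replicate 3. Taking only the 43 genes above background on all 6 arrays, the median was 1.23 with 40 positive. The median level of the list was between -0.72 and -0.29 on the Eng-Flk1+ arrays and between 0.80 and 1.38 on the Eng+Flk1+ arrays, with a summed linear signal of 99.3 to 109 against 173 to 260 times the 75th percentile. Bright probes weigh most in that sum. The probe named Ramp2, one of the 25, was at 4.985, 5.025 and 5.149 against 5.705, 5.154 and 5.754 (0.48 ± 0.44). Its position is chromosome 19 from 5802193 to 5802252 (build mm8), and whether it reads Ramp2 was not tested. In sorted bulk samples a larger share of endothelial cells and more of these transcripts per cell cannot be told apart.

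Tie1, an orphan receptor of endothelial cells, had the largest fold of the list. It was at -0.59, -3.19 and -1.36 in Eng-Flk1+ and at 2.97, 2.45 and 3.64 in Eng+Flk1+ (4.74 ± 1.08, limma adjusted p = 0.314; probe on chromosome 4 from 117969459 to 117969518, build mm8). The lowest Eng+Flk1+ array stood about 3 log2 units above the highest Eng-Flk1+ array. Its partner Tek, the receptor of the angiopoietins, was at -0.59, -1.35 and 0.20 against 2.17, 1.77 and 2.25, again without overlap, with a fold of 2.65 ± 1.30 (limma adjusted p = 0.999). Among the VEGF receptors other than Kdr, Flt4, later the receptor of lymphatic vessels, had a fold of 1.98 ± 0.93 and the decoy receptor Flt1 one of 1.27 ± 1.05 (both limma adjusted p = 0.999), and neither gene's groups overlapped.

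The ETS factors that bind vessel genes recognise a core of GGAA, so the stretch of 250 bases before the start site was searched for AGGAAG on both strands (CTTCCT on the other). RefSeq promoters (GRCm38.p6) were at hand for 25 of the 46 tested genes of the list. The hexamer occurred before at least 1 start site of 17 of these 25 genes (68%), against 8734 of 27025 genes in the table (32.3%). Of the 8 list genes with a promoter at hand that were higher at an unadjusted p under 0.05, 7 held it: Cd34, Erg, Notch4, Rhoj, Stab1, Thsd1 and Tie1. The share was 63.6% (14 of 22) among the blood regulators, 40% (4 of 10) among the angioblast genes, 35% (7 of 20) among the streak genes and 31.6% (6 of 19) among the genes of primitive red cells. A GATA hexamer, AGATAA or TTATCT, was present for 8% of the endothelial genes and 11.4% of all genes. A match describes letters and not a bound site. The promoters of Tie1 and Cd34, which were higher in Eng+Flk1+, and of Etv2, which was lower and holds the hexamer too, are shown 5′ to 3′ on the strand of the gene, with the hexamer in capitals. They lie at chr4:118489850-118490099 (minus strand), chr1:194938571-194938820 (plus strand) and chr7:30635853-30636102 (minus strand).
Tie1: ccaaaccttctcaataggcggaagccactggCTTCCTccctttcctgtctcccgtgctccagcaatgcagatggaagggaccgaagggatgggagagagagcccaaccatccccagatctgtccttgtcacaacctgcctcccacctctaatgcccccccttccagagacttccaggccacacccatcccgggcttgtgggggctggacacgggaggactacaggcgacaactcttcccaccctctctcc
Cd34: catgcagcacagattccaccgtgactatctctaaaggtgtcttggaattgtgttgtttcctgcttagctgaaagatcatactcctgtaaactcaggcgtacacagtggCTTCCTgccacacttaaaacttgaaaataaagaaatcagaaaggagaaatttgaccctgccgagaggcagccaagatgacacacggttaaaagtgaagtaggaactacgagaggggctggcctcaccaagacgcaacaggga
Etv2: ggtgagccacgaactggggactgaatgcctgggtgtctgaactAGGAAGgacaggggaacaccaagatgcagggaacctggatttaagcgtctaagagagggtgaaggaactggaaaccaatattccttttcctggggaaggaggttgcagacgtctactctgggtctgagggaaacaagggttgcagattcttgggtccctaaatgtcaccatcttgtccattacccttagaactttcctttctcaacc
In these 3 promoters the hexamer begins 219, 142 and 207 bases before the start site, read as CTTCCT in Tie1 and Cd34 and as AGGAAG in Etv2.

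Proteins of the surface and junctions of endothelial cells were next in size. Cdh5, the cadherin that holds endothelial cells together, was at -1.77, -0.66 and -2.58 in Eng-Flk1+ and at 3.10, 2.39 and 2.12 in Eng+Flk1+ (4.20 ± 1.18, limma adjusted p = 0.528). Pecam1, an adhesion molecule of the vessel lining, was at -1.55, -1.37 and -0.86 against 2.21, 2.02 and 2.42 (3.48 ± 0.76, limma adjusted p = 0.275). For both genes all Eng+Flk1+ arrays lay more than 2 log2 units above all Eng-Flk1+ arrays, and Pecam1 varied little within either group (SD 0.36 and 0.20). The adhesion molecule Icam2 had levels of -3.75, -2.24 and -1.92 against 0.66, -1.10 and 1.36 (2.94 ± 0.74, limma adjusted p = 0.398). The sialomucin Cd34 had levels of -1.77, -5.38 and -0.89 against 0.83, 0.34 and 0.14 (3.12 ± 0.96, limma adjusted p = 0.669). Its groups did not overlap, but the spread in Eng-Flk1+ came mostly from replicate 2. The tight junction protein Cldn5 had a smaller fold of 1.99 ± 0.64 (limma adjusted p = 0.731).

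**Figure D1:**
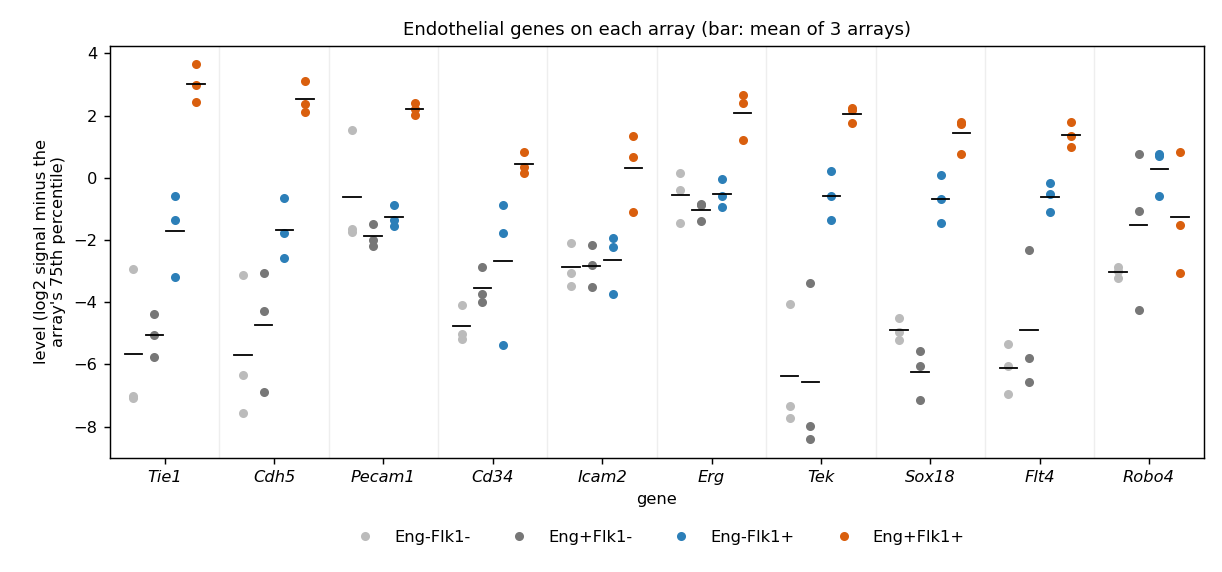
Levels of 10 endothelial genes on each of the 12 arrays, as log2 signal minus the 75th percentile of the array. Points are arrays, coloured by fraction, and bars are means of 3 arrays. From Tie1 to Flt4 every Eng+Flk1+ array lies above every Eng-Flk1+ array, and for Robo4 the groups overlap.

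Among the transcription factors of the list, Erg, Fli1 and Sox18 were higher at an unadjusted p under 0.05, while Ets1, Sox7, Sox17, Mef2c, Elk3 and Bcl6b did not pass it. Erg, an ETS factor that maintains endothelial identity, was at -0.93, -0.58 and -0.03 in Eng-Flk1+ and at 2.40, 1.21 and 2.67 in Eng+Flk1+ (2.61 ± 0.55, limma adjusted p = 0.248), the lowest p of the list. Fli1, its close relative, was at -1.39, -1.37 and -0.96 against 0.30 and 0.25, with no value on Eng+Flk1+ replicate 3, where the spots were set aside as outliers (1.52 ± 0.65, limma adjusted p = 0.999). Sox18, a factor of vessel and lymphatic formation, was at 0.09, -1.46 and -0.68 against 1.72, 0.78 and 1.78 (2.11 ± 0.56, limma adjusted p = 0.466). In none of the 3 did the groups overlap. Signalling proteins of the vessel wall were among the 17 as well. They include the receptor Notch4 (2.39 ± 0.73, limma adjusted p = 0.669), the sphingosine phosphate receptor S1pr1 (2.34 ± 0.74, limma adjusted p = 0.691) and the nitric oxide synthase Nos3 (2.15 ± 0.69, limma adjusted p = 0.731). The others were Thsd1 (1.94), Stab1, a scavenger receptor (1.82), Cd93 (1.51), the small GTPase Rhoj (1.17) and Ecscr, a surface protein of endothelial cells (2.76).

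Not every endothelial gene was higher. The guidance receptor Robo4 was at 0.70, 0.77 and -0.60 in Eng-Flk1+ and at -1.51, 0.82 and -3.07 in Eng+Flk1+ (-1.54 ± 1.22, limma adjusted p = 0.999). Endomucin (Emcn), a sialomucin of venous and capillary endothelium, had a fold of -0.73 ± 0.73 and Bcl6b one of -1.28 ± 1.48 (both limma adjusted p = 0.999). In all 3 the groups overlapped, and for Bcl6b the sign rested on Eng+Flk1+ replicate 2 (0.24 without it). The secreted factor Egfl7 (0.97 ± 0.65) and Plvap, a protein of endothelial pores (0.96 ± 0.62), had folds below the median of the list (limma adjusted p = 0.999 for both).

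Within slide 2, with 2 arrays of each fraction, the endothelial median was 1.09 and 40 of 46 folds were positive. Fitting the slide as a block gave the same median, with 11 genes higher and 0 lower at an unadjusted p under 0.05 (1.73% and 1.68% of all genes), and limma then called 0 of all genes (774 at an unadjusted p under 0.05). Tie1 had a fold of 4.99 within that slide, Cdh5 of 4.36, Pecam1 of 3.23 and Erg of 2.11.

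Genes of the early angioblast and hemangioblast stage did not move 1 way. Of 16 genes 15 were tested (Cdx4 was not), 7 with a positive and 8 with a negative fold, and the median was -0.17. At an unadjusted p under 0.05, 3 were higher and 3 lower (2.39% of all genes each way). For 12 members the signal stood well above background on each of the 6 arrays. Of those, 2 were higher and 2 lower, with a median of -0.05. With the slide as a block 0 of the 15 were higher and 2 lower (1.73% and 1.68% of all genes). Etv2, the ETS factor that starts the blood and vessel programme, was at 3.72, 2.69 and 4.01 in Eng-Flk1+ and at 2.62, 1.20 and 1.96 in Eng+Flk1+. Every Eng+Flk1+ array was lower, though the gap between the groups was small, and the fold was -1.55 ± 0.51 (limma adjusted p = 0.756). Etv2 thus lay on the opposite side of its relatives Erg and Fli1. In both fractions it stayed above the means of the fractions without Flk1, -2.41 in Eng-Flk1- cells and -1.04 in Eng+Flk1- cells.

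Of the 3 forkhead factors of this list, Foxf1 and Foxc1 were lower at that threshold, and Foxc2 had a fold of -2.21 ± 1.72 with overlap (limma adjusted p = 0.999). Foxf1, a factor of lateral and extraembryonic mesoderm, was at 0.80, 1.00 and 1.43 in Eng-Flk1+ and at 0.10, -3.43 and -0.93 in Eng+Flk1+ (-2.50 ± 0.75, limma adjusted p = 0.633). Foxc1 was at -1.19, -5.20 and -1.24 against -6.55, -6.15 and -5.86 (-3.64 ± 1.06, limma adjusted p = 0.586) and was well above background on 1 of 3 Eng+Flk1+ arrays, and its fold therefore rests in part on values near background. Neither gene's groups overlapped. Smad1, which carries BMP and Endoglin signals to the nucleus, had a fold of -1.33 ± 0.60, also without overlap (limma adjusted p = 0.999).

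The 3 angioblast genes on the higher side were Zfp711, an X-linked zinc finger factor (1.81 ± 0.68, limma adjusted p = 0.902), the blood and vessel factor Lyl1 (2.29 ± 0.98, limma adjusted p = 0.999) and Rasgrp3, an exchange factor for Ras. Rasgrp3 was tested only through Eng+Flk1+, the group where it is high, so the filter favoured its difference. It was detected well above background on 3 of 3 Eng+Flk1+ and 0 of 3 Eng-Flk1+ arrays, at least 3.07-fold higher (limma adjusted p = 0.660). Such a bound sets the mean of the brighter group against the dimmest probe well above background on each array of the dimmer group, or against the gene's own signal where that is higher. Background correction by normexp, which adds an offset to every signal, gave 1.43-fold for Rasgrp3. It gave less than the bound for each of the 8 named genes with a bound between the Flk1 positive fractions. Among the core regulators of blood and vessel fate, Tal1 was at 3.56, 2.99 and 3.83 in Eng-Flk1+ and at 3.95, 3.32 and 3.69 in Eng+Flk1+ (0.19 ± 0.71, limma adjusted p = 0.999), and its partner Lmo2 was at 3.36, 4.27 and 3.17 against 4.63, 4.93 and 4.62 (1.13 ± 0.90, limma adjusted p = 0.999). The groups overlapped for Tal1 and not for Lmo2. Hhex, Gata2 and Bmp4 had folds of -0.17 ± 0.63, -0.24 ± 2.17 and 0.07 ± 0.62 (limma adjusted p = 0.999 for each). The sign of the folds of Tal1, Hhex and Bmp4 turned when 1 array was left out, so they have no settled direction.

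Genes of the primitive streak and of nascent mesoderm lay on both sides. Of 29 genes 26 were tested, 16 with a negative and 10 with a positive fold, and the median was -0.18. At an unadjusted p under 0.05, 5 were lower and 0 higher (2.39% of all genes each way), while 3 had groups wholly lower (6.37% of all genes) and 2 wholly higher (7.45%), the T-box factor Tbx6 and the apelin receptor Aplnr (0.64). Frzb, a secreted Wnt inhibitor, had the largest difference: 2.00, 0.89 and 1.31 in Eng-Flk1+ against -6.14, -5.0 and -3.92 in Eng+Flk1+ (-6.43 ± 1.07, limma adjusted p = 0.131). Cdx2, a homeobox factor of posterior mesoderm and trophoblast, was at 0.45, -0.99 and -1.13 against -3.36, -6.98 and -3.05 (-3.91 ± 0.98, limma adjusted p = 0.398). Both genes were well above background on 2 of 3 Eng+Flk1+ arrays, and their groups lay far apart. Pdgfra, a receptor of paraxial and cardiac mesoderm, was at 2.45, 0.34 and 1.98 against 0.18, -2.24 and -4.59 (-3.81 ± 1.30, limma adjusted p = 0.786).

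The streak ligand Wnt3 (-2.19 ± 0.73, limma adjusted p = 0.760) and its relative Wnt3a (-2.02 ± 0.87, limma adjusted p = 0.999) overlapped between the groups, and Wnt3a was well above background on 0 of 3 Eng+Flk1+ arrays and 2 of 3 Eng-Flk1+ arrays. The T-box factors that define the streak showed no common direction: brachyury (T) had a fold of -1.02 ± 1.66, Eomes of 0.70 ± 0.72 and Tbx6 of 1.85 ± 1.06 (limma adjusted p = 0.999 for each). Snai1, which drives the exit of mesoderm from the streak, had one of -1.71 ± 0.97 and Mesp1, which marks the first cardiac and cranial mesoderm, one of -0.34 ± 0.76 (both limma adjusted p = 0.999). The 23 streak genes that stood well above background on each of the 6 arrays had a median of -0.03 with 2 lower at an unadjusted p under 0.05. With the slide as a block the median over all 26 was 0.10 with 14 positive and 3 lower, so the list as a whole has no settled direction.

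**Figure D2:**
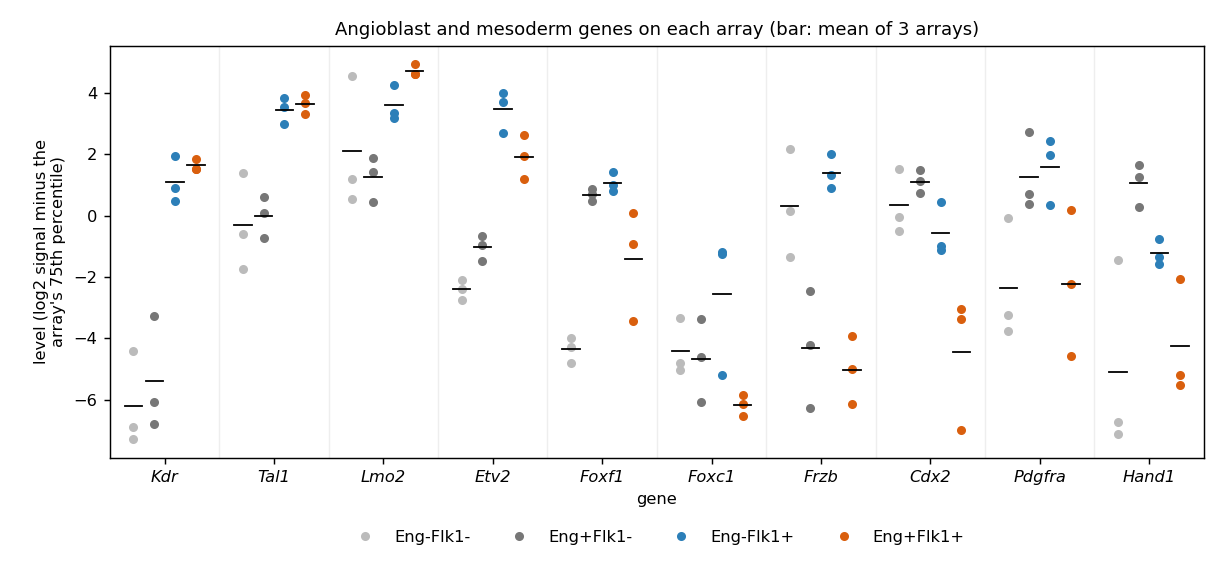
Levels of 10 angioblast and mesoderm genes on each of the 12 arrays, as log2 signal minus the 75th percentile of the array. Points are arrays, coloured by fraction, and bars are means of 3 arrays. Kdr and Tal1 overlap between the Flk1 positive fractions, Lmo2 lies higher in Eng+Flk1+, and Etv2, Foxf1, Foxc1, Frzb, Cdx2, Pdgfra and Hand1 lie wholly lower there.

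The lists of other mesoderm differed among themselves. Of 22 tested genes of lateral and cardiac mesoderm 17 had a negative fold (44.4% of all genes did), the median was -0.34, and 6 had groups wholly lower and 0 wholly higher (6.37% and 7.45% of all genes). At an unadjusted p under 0.05, 3 were lower: the Wnt inhibitor Sfrp1 (-3.67 ± 1.45, limma adjusted p = 0.933), Snai2 (-1.53 ± 0.68, limma adjusted p = 0.999) and the heart factor Nkx2-5. Nkx2-5 was at -5.06, -5.26 and -5.05 in Eng-Flk1+ and well above background on no Eng+Flk1+ array, at least 2.07-fold lower (limma adjusted p = 0.902; 1.15-fold with normexp). The heart and extraembryonic mesoderm factor Hand1 was at -0.75, -1.58 and -1.36 against -2.05, -5.20 and -5.54 (-3.03 ± 1.39, limma adjusted p = 0.999), and Hand2 (-1.22 ± 0.69) and the second heart field factor Isl1 (-1.99 ± 0.90) were also wholly lower (both limma adjusted p = 0.999). With the slide as a block 10 of the 22 folds were positive, the median was -0.24 and 1 gene was lower at an unadjusted p under 0.05. The list also moved with the probe choice. With the mean of all probes of a gene 2 folds were positive, the median was -0.86 and 6 were lower (2.9% of all genes). Leaving out 1 array gave 0 (without Eng-Flk1+ replicate 3) to 4 genes lower (without Eng+Flk1+ replicate 2).

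Of 23 tested genes of allantois and extraembryonic mesoderm, 17 had a negative fold (44.4% of all genes did), with a median of -0.57. The groups were wholly lower for 2 genes and wholly higher for 2 (6.37% and 7.45% of all genes). The higher ones were Vim, a filament protein of mesenchyme (1.32), and Ahnak (0.62). The growth factor Bmp7 was at 0.16, 1.24 and 0.74 in Eng-Flk1+ and at -2.71, -0.39 and -2.18 in Eng+Flk1+ (-2.47 ± 0.95, limma adjusted p = 0.905), with no overlap. The hindlimb factor Pitx1 (-3.12 ± 1.26, limma adjusted p = 0.960) and Tbx3 (-2.09 ± 0.88, limma adjusted p = 0.999) passed an unadjusted p under 0.05 while their groups overlapped, and 0 genes of the list were higher at that threshold. With the slide as a block 0 were lower and 0 higher at it. With the mean of all probes of a gene 7 were lower and 1 higher (2.9% and 2.58% of all genes). Twist1, a factor of mesenchyme, had a fold of -1.46 ± 0.77 and the allantois factor Tbx4 one of -1.74 ± 0.98 (both limma adjusted p = 0.999). The 11 tested genes of paraxial mesoderm, the source of the somites, had a median of 0.04 and 6 positive folds, with 0 passing in either direction.

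**Figure D3:**
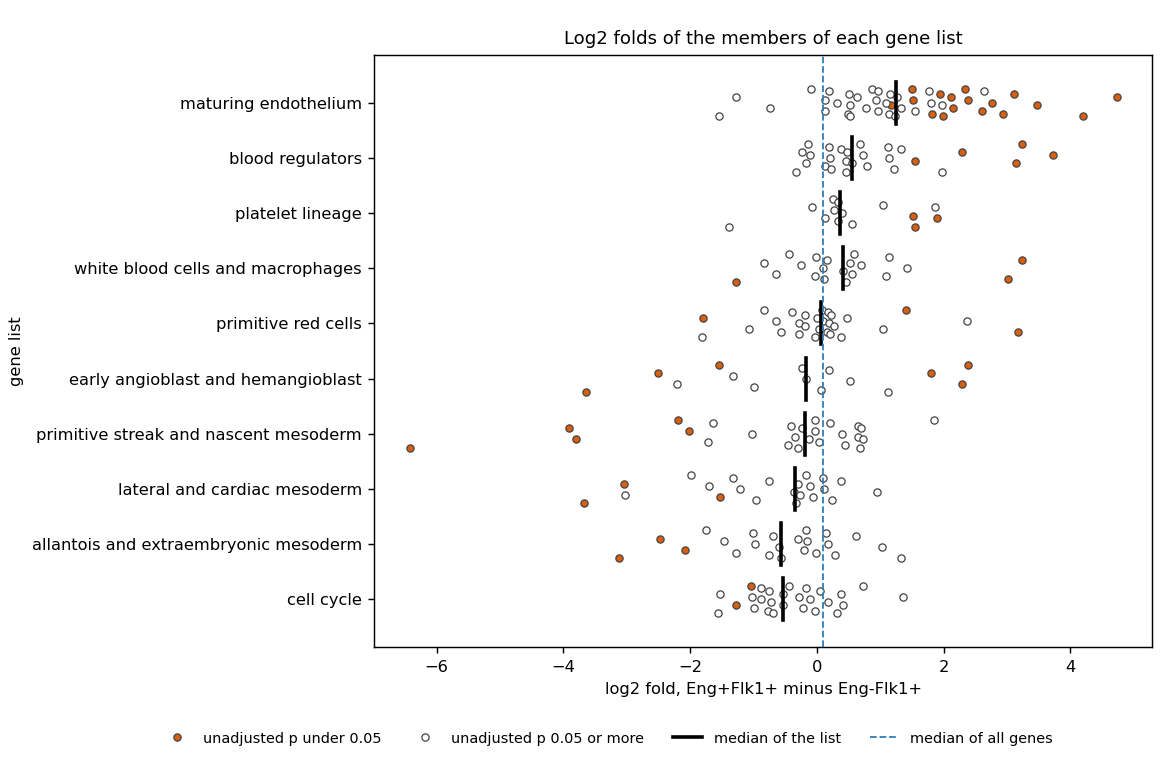
Log2 folds (Eng+Flk1+ minus Eng-Flk1+) of the tested genes of 10 lists. Points are genes, filled where the unadjusted limma p is under 0.05, black bars are list medians and the dashed line is the median of all genes at 0.10. The endothelial median stands at 1.25 and the medians of the angioblast, streak, lateral and allantois lists lie between -0.57 and -0.17. Over only the genes of those angioblast and mesoderm lists well above background on all 6 arrays, the medians lie between -0.33 and -0.03. Paraxial mesoderm, with a median of 0.04, is not drawn.

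Regulators of blood formation leaned higher. All 27 genes of that list were tested, 22 had a positive fold (55.6% of all genes did), and the median was 0.55. At an unadjusted p under 0.05, 5 were higher and 0 lower (2.39% of all genes each way), and 7 had groups wholly higher and 0 wholly lower (7.45% and 6.37%). With the slide as a block 3 were higher, and leaving out Eng-Flk1+ replicate 2 also left 3. Vav1, a signalling protein of blood cells, was at -4.85, -4.22 and -5.0 in Eng-Flk1+ and at -0.77, 0.12 and -2.27 in Eng+Flk1+ (3.72 ± 0.97, limma adjusted p = 0.456). Spi1 (PU.1), a master factor of white cells, was at -5.32, -4.24 and -4.64 against 0.02, -3.60 and -0.91 (3.24 ± 1.05, limma adjusted p = 0.738). In both the groups were apart, and the Eng+Flk1+ arrays varied more than the Eng-Flk1+ arrays.

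Itga2b, the integrin CD41 of early blood precursors and platelets, was at 0.38, 1.17 and 1.39 in Eng-Flk1+ and at 2.04, 2.75 and 2.78 in Eng+Flk1+ (1.54 ± 0.52, limma adjusted p = 0.781). Gfi1, a repressor that acts when blood emerges from endothelium, was at -4.11, -7.51 and -3.07 against -3.34, 0.35 and -2.28, with overlap (3.14 ± 1.12, limma adjusted p = 0.843). Its lowest and highest values were those of replicate 2 of each fraction, and it was not well above background on all 6 arrays. Of the 26 genes that were, 4 were higher at an unadjusted p under 0.05, and the median was 0.51 with 21 positive. The last of the 5 was Lyl1, given above. The stem cell factor receptor Kit had a fold of 1.97 ± 0.90 (limma adjusted p = 0.999), with groups apart. Runx1, which is needed for definitive blood, was at 0.91, 1.04 and 0.80 against 1.02, 1.17 and 1.94 (0.46 ± 0.38, limma adjusted p = 0.999), with overlap. Tal2, a relative of Tal1 that was picked after its values were seen and is in no list, was at -5.94, -6.65 and -5.71 against -2.90, -3.83 and -2.55 (3.01 ± 0.44, limma adjusted p = 0.0864).

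The 28 tested genes of primitive red cells, the first blood cells of the yolk sac, had a median of 0.06. At an unadjusted p under 0.05, 2 were higher and 1 lower (2.39% of all genes each way). Rhag, a membrane protein of red cells, was at -5.21, -4.51 and -4.84 in Eng-Flk1+ and at -3.53, -3.47 and -3.32 in Eng+Flk1+ (1.41 ± 0.44, limma adjusted p = 0.680). The water channel Aqp1, which is made by endothelium too, was at least 4.35-fold higher (limma adjusted p = 0.688; 1.91-fold with normexp). Smim1, which carries the Vel blood group, was lower at 0.09, -0.70 and -1.31 against 1.14, 1.03 and 1.31 in Eng-Flk1+ (-1.80 ± 0.57, limma adjusted p = 0.702). The embryonic globins overlapped between the fractions. Hbb-bh1 was at -0.45, -1.44 and -1.88 in Eng-Flk1+ and at -1.54, -1.22 and -1.56 in Eng+Flk1+ (-0.18 ± 0.61), Hbb-y had a fold of 1.05 ± 0.83 and Hba-x of -1.07 ± 1.73 (limma adjusted p = 0.999 for each). The red cell factor Gata1 had a fold of 0.38 ± 0.46 (limma adjusted p = 0.999). The summed signal of the list was 21.0 to 24.1 times the 75th percentile in Eng-Flk1+ and 17.7 to 24.7 in Eng+Flk1+, so the groups overlapped.

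Of 14 tested genes of the platelet lineage 12 had a positive fold (55.6% of all genes did), with a median of 0.37, 6 groups wholly higher and 0 wholly lower (7.45% and 6.37% of all genes). Itga2b, the thrombin receptor F2rl2 (1.51 ± 0.62, limma adjusted p = 0.970) and the surface protein Gp9 (1.90 ± 0.83, limma adjusted p = 0.999) were higher at an unadjusted p under 0.05. Gp9 was not well above background on all 6 arrays. The count of the list was 1 with the slide as a block, 1 without Eng-Flk1+ replicate 2 or Eng+Flk1+ replicate 2, and 0 without Eng-Flk1+ replicate 1. Of 21 genes of white blood cells, Spi1 and the lysosomal protein Laptm5 (3.02 ± 1.02, limma adjusted p = 0.781) were higher and Cd52 was lower (-1.28 ± 0.56, limma adjusted p = 0.999) at that threshold. It was passed by 2.39% of all genes each way.

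**Figure D4:**
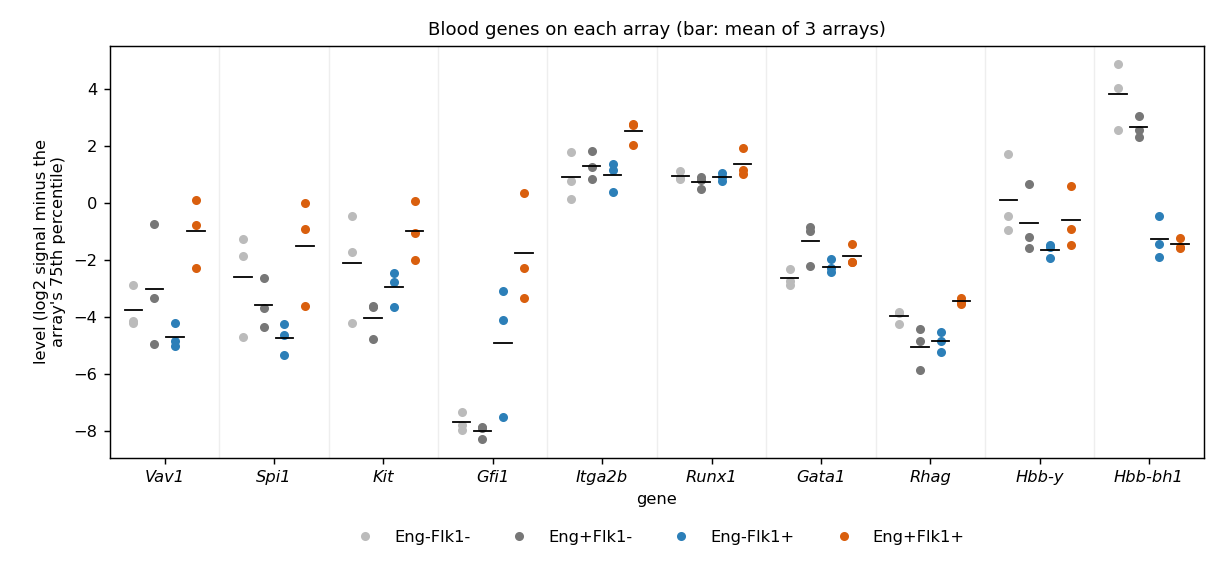
Levels of 10 blood genes on each of the 12 arrays, as log2 signal minus the 75th percentile of the array. Points are arrays, coloured by fraction, and bars are means of 3 arrays. Vav1, Spi1, Kit, Itga2b and Rhag lie wholly higher in Eng+Flk1+ than in Eng-Flk1+, and Runx1, Gata1 and both beta-like globins overlap.

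In the pathway of the sorted protein itself, folds lay on both sides of 0. Of 28 tested genes of Endoglin ligands, receptors, Smad proteins and targets, 15 had a positive fold (55.6% of all genes did) and the median was 0.07. At an unadjusted p under 0.05 (2.39% of all genes each way), 1 was higher, Eng itself, and 3 were lower. These were the ligand Tgfb2 (-3.72 ± 1.39, limma adjusted p = 0.896) and 2 of the Id genes, which are direct targets of BMP signals. Tgfb2 was not well above background on all 6 arrays. Id2 was at 0.70, -0.04 and 0.93 in Eng-Flk1+ and at -3.64, -0.74 and -6.04 in Eng+Flk1+ (-4.00 ± 1.05, limma adjusted p = 0.456). Id4 was at -2.06, -1.67 and -1.86 against -7.05, -3.56 and -7.07 (-4.03 ± 1.06, limma adjusted p = 0.462), with 1 of 3 Eng+Flk1+ arrays well above background. Eng+Flk1+ replicate 2 was the highest of its group for both. Id1, the classical endothelial target, had a fold of -1.16 ± 0.63 and the receptor Acvrl1, which binds ligand together with Endoglin, one of 1.09 ± 0.95 (both limma adjusted p = 0.999), which was -0.04 within slide 2.

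In the Notch pathway 2 genes were higher and 1 lower at an unadjusted p under 0.05 (2.39% of all genes each way), and with the slide as a block 0 were either. The receptors Notch4 and Notch1 (1.12 ± 0.49, limma adjusted p = 0.999) were higher without overlap, and Hes1, a target, was lower at -3.56, 1.05 and -3.83 against 2.28, 2.77 and 2.03 in Eng-Flk1+ (-4.48 ± 1.55, limma adjusted p = 0.803). Of 18 tested genes 10 had a positive fold (median 0.28). In the VEGF pathway the median over 15 genes was -0.20, and the ligand Pgf was lower without overlap (-1.25 ± 0.54, limma adjusted p = 0.999).

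Markers of other cells in the embryo were read beside these lists, and their part in the results was not tested. For visceral endoderm, 0 of 19 tested genes passed an unadjusted p under 0.05, the median was 0.09, and the summed signal was 17.0 to 26.1 in Eng-Flk1+ and 14.7 to 22.3 in Eng+Flk1+, against 128 to 353 in Eng-Flk1-. For epithelium, 3 of 18 were lower and 0 higher at that threshold (2.39% of all genes each way), and the median was -0.07 with 7 positive. The groups were wholly lower for 3 and wholly higher for 2 (6.37% and 7.45% of all genes). The list's summed signal was 43.9 to 53.7 in Eng-Flk1+ against 18.4 to 24.7 in Eng+Flk1+, without overlap, while its median level overlapped (-2.34 to -1.24 against -2.49 to -1.09). The glycoprotein Cd24a was at 4.29, 4.08 and 4.23 in Eng-Flk1+ and at 1.81, 1.38 and 1.75 in Eng+Flk1+ (-2.55 ± 0.44, limma adjusted p = 0.131). The keratin Krt8 (-2.47 ± 0.62, limma adjusted p = 0.398) and the protease inhibitor Spint2 (-3.15 ± 1.09, limma adjusted p = 0.803) were the others that were lower. Spint2 was not well above background on all 6 arrays. Among 13 genes of definitive endoderm and node, Cer1, a secreted inhibitor of Nodal, BMP and Wnt, was at -2.16, -1.18 and -0.06 in Eng-Flk1+ and well above background on no Eng+Flk1+ array, at least 33.0-fold lower (limma adjusted p = 0.131). With normexp Cer1 was 5.24-fold lower (limma adjusted p = 0.88). The summed signal of maternal and adult red cell genes was 1.92 to 4.21 and 2.03 to 2.52, against 353 to 672 in Eng-Flk1-. Of 27 cell cycle genes 20 had a negative fold, where 44.4% of all genes did, and the median was -0.53. The cyclin Ccne1 (-1.28 ± 0.58, limma adjusted p = 0.999) and the inhibitor Cdkn1c (-1.05 ± 0.41, limma adjusted p = 0.926) were lower and 0 higher at an unadjusted p under 0.05.

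The 6 genes that passed the adjusted threshold belong to none of the lists. Tceal1, an X-linked nuclear protein, fell from -2.00, -0.80 and -0.83 in Eng-Flk1+ to -5.54, -5.62 and -5.21 in Eng+Flk1+ (-4.25 ± 0.45, limma adjusted p = 0.0151). Fbxo17, a subunit of a ubiquitin ligase, fell from -1.67, -0.02 and -1.44 to -6.50, -5.69 and -5.61 (-4.89 ± 0.61, limma adjusted p = 0.0482), where 1 of 3 arrays was well above background. Ttc21b, a part of the machinery that carries cargo along cilia, was at 0.22, 1.06 and -1.68 and fell to values not well above background on any Eng+Flk1+ array, at least 65.9-fold lower (limma adjusted p = 0.0482). The other 3 are known by accession names, with AK036185 at least 15.7-fold and AK084660 at least 13.1-fold higher and BC060267 at least 8.34-fold lower (limma adjusted p = 0.0119, 0.0482 and 0.0119). AK084660 was tested only through Eng+Flk1+ and BC060267 only through Eng-Flk1+, in each case the group where it is high. The filter thus favoured these differences, and the calls are no independent support for them. Without the filter on dim genes AK084660, Fbxo17 and Ttc21b each had a limma adjusted p of 0.0664. The calls moved with the processing. Background correction by normexp gave smaller folds for Tceal1 (-2.02), Fbxo17 (-2.13) and Ttc21b (-3.26), and for AK036185 (1.59), AK084660 (1.55) and BC060267 (-0.963), so that none of the 6 then passed, and averaging all probes of a gene gave -3.58 for Ttc21b. With the same 22720 genes tested, the count of calls was 0 without Eng+Flk1+ replicate 1 or 3 (1101 and 1081 at an unadjusted p under 0.05), 2 without Eng-Flk1+ replicate 1 or Eng+Flk1+ replicate 2, and 3 without Eng-Flk1+ replicate 2. With the tested genes chosen anew on the arrays that remained, a choice made after seeing the data, the counts were 5 and 18 without Eng+Flk1+ replicate 1 or 3 and 4 to 7 without any of the others.

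The largest differences were taken among all genes above background on all 6 arrays with groups apart and an unadjusted p under 0.01. The 8 largest on the higher side, of which Tie1 and Cdh5 are on the endothelial list and Vav1 is on the blood list, were Tie1, Exoc3l2, an exocyst relative (4.26 ± 0.99), Cdh5, Tmem204, a claudin-like membrane protein (3.99 ± 0.67), Ctla2b (3.75 ± 1.18), Vav1, Perm1 (3.65 ± 0.99) and Ankrd1 (3.60 ± 0.65). Tmem204 was at -1.26, -4.02 and -2.11 in Eng-Flk1+ and at 1.37, 1.47 and 1.74 in Eng+Flk1+ (limma adjusted p = 0.131). The 8 on the lower side were the Wnt receptor Fzd3 (-5.22 ± 1.12), the homeobox factor Irx1 (-5.08 ± 0.99), Gal3st4 (-4.80 ± 1.02), Spa17 (-4.50 ± 1.40), the exchange factor Arhgef11 (-4.44 ± 1.38), Sobp (-4.33 ± 0.74), Tceal1 and the mitochondrial protein Cmc2 (-4.19 ± 0.84). Irx1 was at 0.60, 0.92 and 0.68 against -5.09, -3.50 and -4.45 (limma adjusted p = 0.198), a wide gap with little spread in Eng-Flk1+. Of these 16 genes only Tceal1 passed the adjusted threshold.

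Whether Endoglin goes with the same differences when Flk1 is absent was read from Eng+Flk1- against Eng-Flk1-, which shares no array with the comparison above. Over the 46 endothelial genes the median difference without Flk1 was 0.01 with 23 positive, against 1.25 with 42 positive among Flk1 positive cells. The interaction, the difference between the 2 Endoglin differences, was larger with Flk1 for 12 of the 46 and smaller for 1 at an unadjusted p under 0.05, where 4.12% and 6.41% of all genes passed. By adjusted p 0 of the 46 passed (62 of all genes did, 3 or 0.0132% larger and 59 or 0.26% smaller with Flk1). The interaction was 4.75 ± 1.08 for Pecam1, 4.13 ± 1.52 for Tie1, 3.48 ± 0.80 for Sox18 and 3.07 ± 0.77 for Erg (limma adjusted p = 0.126, 0.379, 0.128 and 0.164). Pecam1 was at -1.73, 1.55 and -1.65 on the Eng-Flk1- arrays, so its difference without Flk1 (-1.27) and the size of its interaction rest in part on replicate 2. The list's median level was between -2.72 and -2.38 on the Eng-Flk1- arrays, close to the range of -2.34 to -2.23 on the Eng+Flk1- arrays. The smaller one was S1pr1, which was well above background on 3 of 3 Eng+Flk1- and 0 of 3 Eng-Flk1- arrays, at least 30.5-fold higher. Tie1 was well above background on 1 of 3 Eng-Flk1- arrays and Sox18 on 1 of 3 Eng+Flk1- arrays. Cdh5 and Tek were so on 1 of 3 Eng-Flk1- arrays each, and on 2 and 1 of 3 Eng+Flk1- arrays. Of the 46 genes, 30 were well above background on all 12 arrays. Where a gene lies near background in both fractions without Flk1, a difference there could be missed.

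Of the 15 angioblast genes 2 passed the adjusted threshold for the interaction, Foxf1 and Bmp4, both smaller with Flk1, and 0 genes of the 4 mesoderm lists did. Foxf1 differed by -2.50 with Flk1 and by 5.03 without it (interaction -7.53 ± 1.06, limma adjusted p = 0.0236). Bmp4, a growth factor of extraembryonic mesoderm, differed by 0.07 with Flk1, where its levels were 2.68, 1.77 and 1.62 against 2.67, 2.12 and 1.50, and by 6.20 without it (interaction -6.12 ± 0.88, limma adjusted p = 0.0244). Hand1 (-9.20), Id2 (-7.02), Tbx3 (-6.36) and Pdgfra (-7.43) had negative interactions that did not pass (limma adjusted p = 0.104, 0.0995, 0.0769 and 0.159), and Hand1 and Tbx3 were each well above background on 1 of 3 Eng-Flk1- arrays. Of 23 genes of allantois and extraembryonic mesoderm, 9 were smaller with Flk1 and 2 larger at an unadjusted p under 0.05, and these counts were 4 and 0 of 15 for the angioblast list, 4 and 0 of 26 for the streak list, 2 and 1 of 22 for lateral mesoderm and 0 and 1 of 11 for paraxial mesoderm. Of all genes, 6.41% were smaller and 4.12% larger with Flk1 at that threshold. Etv2 had an interaction of -2.92 ± 0.72 (limma adjusted p = 0.161). The Eng-Flk1- arrays varied more than the others (median SD over genes 1.01, against 0.58, 0.67 and 0.56), and the fractions without Flk1 share no slide. When the slide was fitted as a block, limma called 0 interactions (1415 at an unadjusted p under 0.05).

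**Figure D5:**
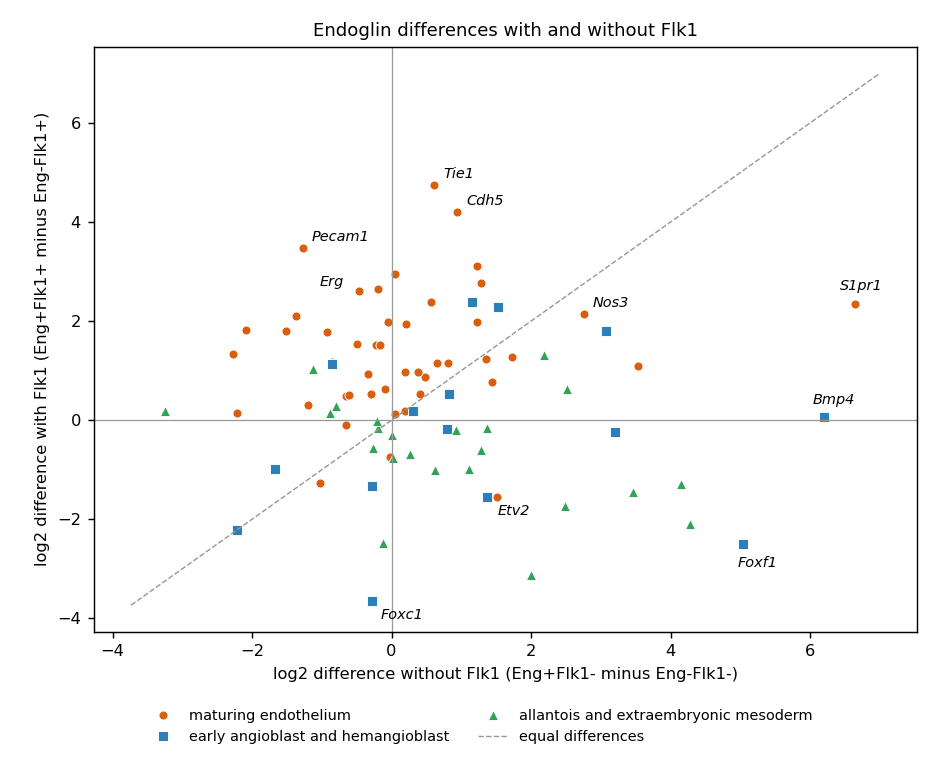
Log2 Endoglin difference with Flk1 (vertical) against that without Flk1 (horizontal) for the tested genes of 3 lists; each point is a gene and the dashed line marks equal differences. Pecam1, Tie1 and Cdh5 stand high on the vertical axis and near the middle of the horizontal one, and Bmp4 and Foxf1 stand far to the right at or below 0.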

How the data were processed

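One Agilent whole-genome array, read in 1 colour, was used per sample. Per the labels, messenger RNA of 3000 sorted cells was turned into cDNA and amplified by PCR (SuperAmp), and Cy3 was attached to 250 ng of the product. Per the file headers, spots were read with Agilent Feature Extraction 10.5.1.1, the processed signal is an intensity with background subtracted and spatial trends removed within the array, and probe positions refer to mm8. The deposited flags of 0 or 1 mark spots well above background, saturated or outlying. The authors' table of all samples, an alternative here, holds an intensity relative to the array's median.

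The 1639 control spots and outlier spots were left out, log2 of the processed signal was taken, and the array's 75th percentile was subtracted. Spots of a probe were averaged, and each of 27548 gene names (updated with RefSeq, GRCm38.p6, for names only, with 8019 of 41174 probes keeping the name in the file) was represented by its brightest probe. A gene was tested where 1 or more groups had it well above background on 3 of 3 arrays. After outlier flags 171 values in 161 genes were missing, and no spot was saturated. A model of the 4 group means was fitted to the 12 arrays with limma (3.58.1, in R 4.3.3, and data.table, version 1.17.8), with Benjamini-Hochberg adjustment over all 22720 genes, and was checked on simulated data. The number of arrays limits the precision. The start sites of the promoters come from RefSeq, and those windows were matched by symbol.

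The comparison and the gene lists were chosen with earlier results of these data known. Named genes are the sorting markers; Tie1, Pecam1, Erg and Etv2; the called genes; those of lowest p in each list, up to 6 in the 5 main lists and 3 in the others; and the 8 largest differences each way among non-overlapping genes with an unadjusted p under 0.01, clone and accession names passed over. Other list members are named to describe a list. Alternatives changed the background correction, scaling, filter, probe choice, slide, replicate number, arrays in the fit, variance prior and array weights, or left out 1 array, with the genes tested kept or, added after seeing the data, chosen anew.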

Additional observations from a re-analysis of the deposited data

Results flagged for a closer look

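Between Flk1 positive and Flk1 negative cells, the Endoglin difference itself differed for 62 genes by the interaction test (limma adjusted p under 0.05), 59 of them smaller with Flk1. Of the genes named here, 6 were among them. The interaction was -11.2 ± 1.37 for Ttc21b (limma adjusted p = 0.0088), -9.90 ± 1.19 for Cmc2 (0.00869), -8.01 ± 0.87 for Fbxo17 (0.00634), -7.53 ± 1.06 for Foxf1 (0.0236), -6.12 ± 0.88 for Bmp4 (0.0244) and -6.04 ± 0.74 for BC060267 (0.0088). In each of the 6 the difference without Flk1 was positive (3.69, 5.71, 3.12, 5.03, 6.20 and 0.82), and with Flk1 it was negative except for Bmp4 (0.07). Foxf1 and Bmp4 were well above background on all 12 arrays. The sizes of the others rest in part on values not well above background: Ttc21b, Cmc2 and Fbxo17 were well above it on 1 of 3 Eng-Flk1- arrays each and BC060267 on 0, and on the Eng+Flk1+ arrays Ttc21b and BC060267 were so on 0 of 3 and Fbxo17 on 1 of 3. BC060267 was tested only through Eng-Flk1+, the group where it is high. The Flk1 negative side rests on the Eng-Flk1- arrays, whose median SD over genes was 1.01, and on groups with no slide in common.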

How the results depend on the processing

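The main values are 6 genes called, 62 interactions called, an endothelial median of 1.25 and 17 endothelial genes higher at an unadjusted p under 0.05. Genes called numbered 3 with normexp, 3 without a filter, 13 in the 9 arrays without Eng-Flk1-, 52 with array weights and 0 with genes above background on all 12 arrays, the slide as a block, slide 2 alone or an intensity trend (733, 774, 1373 and 1049 at an unadjusted p under 0.05). None of the 6 called genes is well above background on all 12 arrays, so that filter removes them and does not test them again. Interactions numbered 39 with normexp, 32 with median scaling, 39 with quantile normalization, 21 with genes above background on all 12 arrays, 0 with the slide block and 32 with the authors' table. The endothelial median was 1.03 with 10 genes higher when genes had to be above background on all 12 arrays (30 genes), and 11 were higher with the slide block. Correlations of deviations were 0.0635, 0.13 and 0.0501 between arrays of like replicate number and -0.101 to 0.0449 between unlike numbers. All were weak, the like numbers were the higher, and whether replicate numbers pair the samples was not settled. With the replicate block 0 genes (1044 at an unadjusted p under 0.05) and 23 interactions were called, and the endothelial median was 1.25. Leaving out 1 array gave 0 to 6 genes, 25 to 72 interactions and endothelial medians of 1.02 to 1.52 (lowest without Eng+Flk1+ replicate 3, highest without replicate 2) with the same genes tested. With genes chosen anew on the remaining arrays, an alternative chosen after seeing the data, these were 4 to 18, 25 to 90 and 1.02 to 1.54, with 18 and 90 without Eng+Flk1+ replicate 3. Of the endothelial genes, Tie1 passed with normexp (4.26, limma adjusted p = 0.0485), Pecam1 in the 9 arrays, and Pecam1, Tie1 and Erg with array weights (limma adjusted p = 0.0166, 0.0308, 0.0451 and 0.0445).

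Folds turned sign for Acvrl1 (-0.0444) and Hbb-bh1 (0.287) with the slide block and on slide 2, and for Hhex (0.402) and Mesp1 (0.0624) with the mean of all probes. With 1 array left out they ranged from -2.24 to 0.239 for Bcl6b, -2.1 to 0.456 for Hba-x, -0.491 to 0.227 for Hbb-bh1, -0.0402 to 0.376 for Tal1, -0.214 to 0.398 for Bmp4, -0.587 to 0.0564 for Hhex and -0.874 to 0.12 for Mesp1. Genes near background, such as Foxc1 or Ttc21b, have folds limited by signal. The cause of these shifts was not tested.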

Other observations

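The lists not yet described showed few members past an unadjusted p under 0.05 (2.39% of all genes each way). Among 16 trophoblast genes, 12 epiblast genes and 10 neuroectoderm genes the medians were 0.14, -0.05 and -0.34. In the first, Ets2, an ETS factor, was at -0.77, -3.42 and 0.87 in Eng-Flk1+ and at 0.95, 0.71 and 1.76 in Eng+Flk1+ (2.25 ± 0.99, limma adjusted p = 0.999), with overlap, and Cdx2 was lower. In the second, the kinase Pim2 had a fold of 1.55 ± 0.70 (limma adjusted p = 0.999), also with overlap, and no neuroectoderm gene passed either way. The 9 genes of the angiopoietin and Tie pathway had a median of 0.56, with Tie1 alone past that threshold. Of 11 stress response genes 0 passed, with a median of -0.44, which was -1.23 with the slide as a block.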
